A study of Mus musculus with 6 samples.

Results

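The growth hormone and IGF axis of the liver was followed through 10 genes, out of 53715 listed in the count table. They were chosen by name and matched on the Ensembl identifier, and all 10 were found and had enough counts to be tested. They comprise the growth hormone receptor gene Ghr, the signal transducer genes Stat5a and Stat5b, the feedback inhibitor genes Socs2 and Cish, the growth factor gene Igf1 and the genes of its carriers, Igfals, Igfbp1, Igfbp2 and Igfbp4.

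Polyadenylated RNA from the livers of F1 males of ICR mice, an outbred stock, was sequenced at 8 weeks of age. There were 3 libraries from control F1 offspring, whose stress label is control, and 3 from FR F1 offspring, whose stress label is paternal famine. The labels do not spell out FR, and the series title speaks instead of an overdiet of the father, so the groups keep their label names here. The labels give neither the hour of collection nor the feeding state, and do not say whether the libraries came from separate animals or fathers, so a p-value here speaks only of the spread among these samples, which may be technical.

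Growth hormone is secreted by the pituitary, in strong pulses in male mice, and binds its receptor on hepatocytes. The receptor's kinase JAK2 phosphorylates STAT5, which enters the nucleus and binds sites of the form TTCNNNGAA. STAT5 raises transcription of Igf1, Igfals and the inhibitors Socs2 and Cish, which then dampen the receptor. Most circulating IGF-1 is made by the liver and travels in a complex with a binding protein and the acid-labile subunit.

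Total counts ranged from 2279755 to 2730160 per library. Levels are given as CPM, the counts scaled to a common library total with TMM factors, and levels of different genes are compared as RPKM, the CPM per kilobase of all annotated exons. Control replicate 3 had the lowest summed hepatocyte markers, at 4670 CPM, where control F1 libraries lay between 4670 and 5870 CPM and FR F1 libraries between 4880 and 5290 CPM, and 0 of the 9 hepatocyte markers was at 0 in all libraries. These are bulk samples, in which fewer cells of a type and less RNA per cell cannot be told apart.

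Short stretches around the STAT5-type motif are shown first because the feedback genes have the widest spread of the 10 and Igfals is the member whose groups did not overlap. RefSeq promoter windows (GRCm38.p6, 250 bases before to 50 after a start site, 300 bases in all) were found for 9 of the 10 genes; Socs2 was not matched. The motif TTCNNNGAA reads the same on both strands. It occurred in 8.30% of all 32851 windows, and in 0.457% at least 2 times. Among the 15 windows of the 9 genes it occurred in 3, which belong to 2 genes, Cish and Igfals. The Cish window held 2 copies, starting at bases 1 and 12 after the start site, in a part that GENCODE M21 also places in the 5′ UTR of a longer Cish transcript. The 2 Igfals copies began 236 and 58 bases before separate start sites and lay between annotated exons of Igfals, downstream of the gene's first annotated start. Capitals mark the motif in the stretches below, all on the plus strand, at chr9:107296654-107296683, chr17:24877598-24877627 and chr17:24878163-24878192.
Cish: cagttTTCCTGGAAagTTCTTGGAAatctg
Igfals, upstream start: gatctataatTTCTCAGAAaagaggctgag
Igfals, downstream start: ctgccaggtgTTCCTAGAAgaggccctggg
These matches are descriptions of the sequence and were not tested as binding sites.

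No member passed the test between FR F1 and control F1 livers. Of all 13022 genes tested, 0.837% did (edgeR's quasi-likelihood F test, 3 libraries in each group, threshold of 0.05 after Benjamini-Hochberg adjustment), 0.392% higher and 0.445% lower in FR F1. DESeq2 and limma-voom, which called 3.51% and 0.791% of the genes, called 0 members too. At an unadjusted p under 0.05 there was 1 member, Igfals, where 17.9% of tested genes lay under that value. Log2 fold changes were positive in 6 members and negative in 4, with a median of 0.27 against 0.00 over all tested genes, and ran from -0.46 for Igfals to 0.92 for Igfbp1. The groups did not overlap in 1 member, Igfals, where 25.7% of tested genes had groups that did not overlap.

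**Figure D1:**
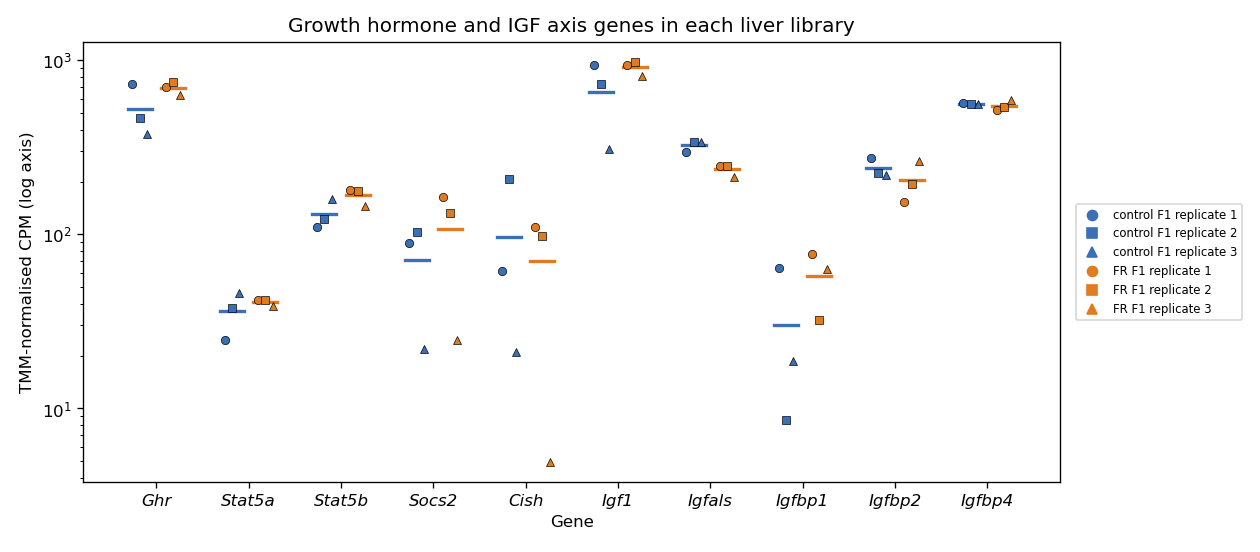
Levels of the 10 axis genes in each library in CPM (TMM-scaled, log axis), with blue for control F1, orange for FR F1, marker shapes for replicate numbers and bars for group means (n = 3). Igfbp4 lay between 518 and 593 CPM in all libraries, while Cish ranged from 4.92 to 207 CPM.

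Ghr (ENSMUSG00000055737.12, chromosome 15, 3317760 to 3583492, minus strand, mm10 with GENCODE M21) encodes the receptor on which the axis depends. Its level was 735, 464 and 378 CPM for control replicates 1, 2 and 3, against 699, 750 and 631 CPM for FR replicates 1, 2 and 3. Control replicates 2 and 3 were below every FR F1 library, while control replicate 1 lay among them. Between groups its log2 fold change was 0.40 ± 0.22 (SE, 95% interval -0.11 to 0.91, edgeR adjusted p = 0.372). Without control replicate 1 it was 0.72 and passed (edgeR adjusted p = 0.0293, between 0.0293 and 0.619 across 14 alternatives). That fit called 4.83% of its genes.

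Stat5a and Stat5b lie side by side on chromosome 11 and encode near-identical transducers, of which STAT5B is known as the main one in liver. Stat5b (ENSMUSG00000020919.11, 100780731 to 100850724, minus strand) had 110, 122 and 159 CPM for control replicates 1, 2 and 3, against 180, 178 and 145 CPM for FR replicates 1, 2 and 3. FR replicates 1 and 2 were the highest libraries, and FR replicate 3 lay under control replicate 3. The log2 fold change of Stat5b was 0.37 ± 0.17 (95% interval -0.03 to 0.76, edgeR adjusted p = 0.305). Stat5a (ENSMUSG00000004043.14, 100859351 to 100885169, plus strand) had 24.7, 37.9 and 46.0 CPM for control replicates 1, 2 and 3, against 41.9, 42.0 and 39.0 CPM for FR replicates 1, 2 and 3. Its FR F1 libraries fell inside the control range, and its log2 fold change was 0.18 ± 0.24 (95% interval -0.37 to 0.72, edgeR adjusted p = 0.708), turning to -0.04 without control replicate 1.

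Per kilobase, Stat5b was above Stat5a in both groups, with 23.5 ± 4.61 against 5.08 ± 1.51 RPKM in control F1 and 30.3 ± 3.59 against 5.74 ± 0.24 RPKM in FR F1 livers (mean ± SD, n = 3). The ratio of Stat5b to Stat5a counts was 4.44, 3.23 and 3.45 for control replicates 1, 2 and 3, against 4.30, 4.25 and 3.72 for FR replicates 1, 2 and 3. The groups overlapped in that ratio, with a log2 difference of 0.15 ± 0.16 (exact two-sided permutation test, p = 0.400). Reads shared by the 2 genes make the split uncertain, since the handling of such reads in the counting is not known here. Stat5a also shares 72 of 7133 exonic bases with Stat3 on the other strand. Its longest transcript has 3958 bases, while that of Stat5b has 5213, beside 5539 exonic bases. Division by all exonic bases thus widens the gap per kilobase between the 2 genes.

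Socs2 and Cish encode SOCS family proteins, which bind the activated receptor and end the signal, and both are textbook early targets of STAT5. These feedback genes were the most variable members within groups. Socs2 (ENSMUSG00000020027.18, chromosome 10, 95385362 to 95417180, minus strand) had 89.3, 103 and 21.9 CPM for control replicates 1, 2 and 3, against 165, 132 and 24.6 CPM for FR replicates 1, 2 and 3. Its lowest libraries were replicate 3 of each group, and its 2 highest were FR replicates 1 and 2. Its estimated log2 fold change was 0.59 ± 0.70 (95% interval -1.01 to 2.20, edgeR adjusted p = 0.661). Leaving out FR replicate 1 or control replicate 3 gave 0.15 and 0.16, and leaving out control replicate 2 or FR replicate 3 gave 0.95 and 1.07.

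Cish (ENSMUSG00000032578.7, chromosome 9, 107296026 to 107302784, plus strand) had 62.0, 207 and 21.1 CPM for control replicates 1, 2 and 3, against 110, 97.3 and 4.92 CPM for FR replicates 1, 2 and 3. Replicate 3 was again the lowest library of each group, and control replicate 2 the highest of all. FR replicate 3 held 12 Cish counts (95% exact Poisson interval 6.2 to 21) and control replicate 2 held 460 (419 to 504), intervals that cover counting error only. The highest level was 42.1-fold the lowest in Cish and 7.54-fold in Socs2. The log2 fold change of Cish was -0.44 ± 0.97 (95% interval -2.68 to 1.79, edgeR adjusted p = 0.828). It was 0.77 without control replicate 2 and 0.11 without FR replicate 3, so its direction depended on the libraries included.

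The within-group SD of log2(CPM + 0.5), pooled over both groups, was 2.09 for Cish and 1.36 for Socs2, against a median of 0.28 over all tested genes. Those values were larger than in 99.8% and 98.8% of tested genes. Igfbp1 followed with 1.11, larger than in 97.7%, and Igfbp4 was at the other end with 0.07, larger than in 2.33%. Cish shares 479 of its 6419 exonic bases with Gm17041 and 261 with Gm17040 on the other strand. These had 370 and 59 counts over all libraries, against 1228 for Cish, and whether the counting used strand is not given here.

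The ratio of feedback transcripts to the receptor transcript varied in the same manner. The ratio of Socs2 to Ghr counts was 0.122, 0.222 and 0.0579 for control replicates 1, 2 and 3, against 0.236, 0.176 and 0.0390 for FR replicates 1, 2 and 3. The Cish to Ghr ratio was 0.0844, 0.447 and 0.0558 in the control libraries and 0.157, 0.130 and 0.00780 in the FR libraries. Replicate 3 had the lowest ratio of its group in both. The log2 differences between groups were 0.02 ± 0.98 for Socs2 to Ghr (exact two-sided permutation test, p = 1.0) and -1.24 ± 1.67 for Cish to Ghr (exact permutation p = 0.600).

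Some further regulators of the hepatic growth hormone response also had replicate 3 at an extreme of each group. Bcl6, Onecut1 and Prlr were picked from a list of 25 after their values were seen, so they are a description. Of the same list, Jak2 and Socs5 were also lowest in replicate 3 of each group, and Stat6, Socs7 and Sh2b1 highest. How often such a pattern occurs over all genes was not counted. Bcl6 encodes a repressor that competes with STAT5 at its sites and is known to be lowered by growth hormone pulses. It had 49.0, 101 and 222 CPM for control replicates 1, 2 and 3, against 84.5, 63.7 and 204 CPM for FR replicates 1, 2 and 3. The 2 libraries lowest in Socs2 and Cish were thus the 2 highest in Bcl6. Onecut1, the gene of the hepatocyte factor HNF6, had 26.5, 44.6 and 8.44 CPM in the control libraries and 18.7, 34.6 and 9.03 CPM in the FR libraries. The prolactin receptor gene Prlr had 287, 282 and 168 CPM in the control libraries and 332, 279 and 153 CPM in the FR libraries, lowest in replicate 3 of each group. None of these 3 differed between groups past the threshold, with log2 fold changes of -0.08 for Bcl6, -0.33 for Onecut1 and 0.05 for Prlr (edgeR adjusted p = 0.949, 0.791 and 0.940). Onecut1 shares 2171 of 4113 exonic bases with a gene model on the same strand, so its counts are uncertain. The labels do not say whether replicate numbers have an order or link a control library to an FR library.

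**Figure D2:**
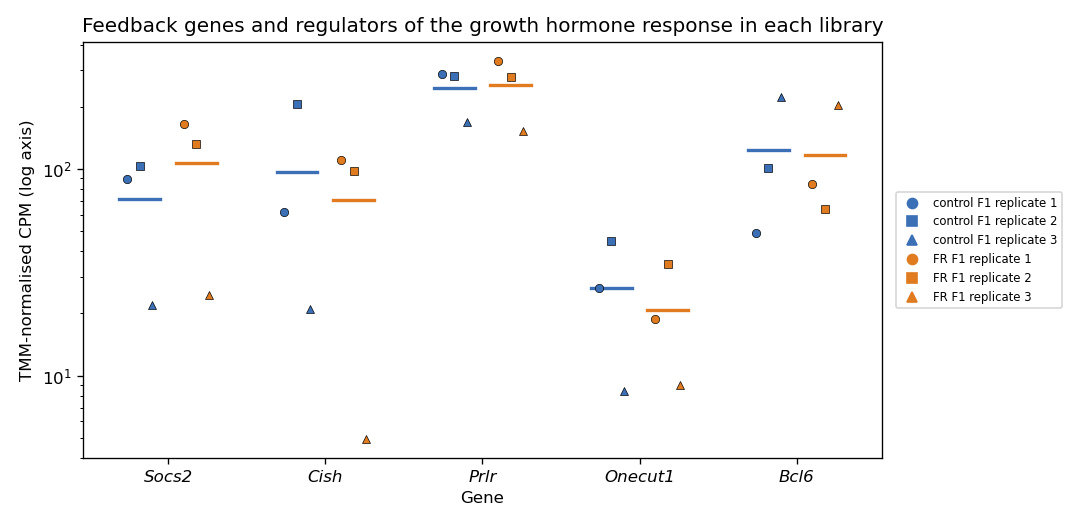
Levels of Socs2, Cish, Prlr, Onecut1 and Bcl6 in each library in CPM (TMM-scaled, log axis), with blue for control F1, orange for FR F1, triangles for replicate 3 and bars for group means (n = 3). Replicate 3 of each group is lowest in Socs2, Cish, Prlr and Onecut1 and highest in Bcl6, where it reaches 222 CPM (control F1) and 204 CPM (FR F1).

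Igf1 (ENSMUSG00000020053.18, chromosome 10, 87858265 to 87937042, plus strand) encodes the growth factor that carries much of the hormone's action. It had 946, 728 and 311 CPM for control replicates 1, 2 and 3, against 938, 973 and 818 CPM for FR replicates 1, 2 and 3. Control replicate 3 stood well under the other libraries and control replicate 1 lay inside the FR range. For FR F1 against control F1 the log2 fold change was 0.46 ± 0.33 (95% interval -0.31 to 1.23, edgeR adjusted p = 0.483), and 0.12 without control replicate 3. Control replicate 3 was also the lowest library in Ghr and, of the control group, in Socs2 and Cish. FR replicate 3 was likewise the lowest FR library in these genes, with 818 CPM of Igf1 and 631 CPM of Ghr beside its 4.92 CPM of Cish. Of the 10 members, 7 were lowest of their group in FR replicate 3 and 6 in control replicate 3. Igf1 passed under 1 of the 14 alternatives, without a filter on low counts (edgeR adjusted p = 0.0153, between 0.0153 and 0.702 across alternatives), a fit that called 4.04% of its genes.

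Igfals (ENSMUSG00000046070.8, chromosome 17, 24865997 to 24882010, plus strand) encodes the acid-labile subunit, a liver protein that holds IGF-1 in the circulating complex. It had 296, 340 and 341 CPM for control replicates 1, 2 and 3, against 247, 247 and 215 CPM for FR replicates 1, 2 and 3. Every FR F1 library was below every control F1 library. It had a log2 fold change of -0.46 ± 0.11 (95% interval -0.73 to -0.20), with an unadjusted p of 0.00338 and an edgeR adjusted p of 0.111, so it did not pass. It lay between -0.53 and -0.39 over the 14 alternatives and passed in 2 of them, without control replicate 1 (edgeR adjusted p = 0.0497) and without a filter on low counts (edgeR adjusted p = 0.0448). Over all 14 the adjusted p ran from 0.0448 to 0.313.

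The ratio of Igfals to Igf1 counts, which does not depend on scaling between libraries, was 0.313, 0.467 and 1.10 for control replicates 1, 2 and 3, against 0.263, 0.253 and 0.263 for FR replicates 1, 2 and 3. The FR F1 libraries were close together and all below the control F1 libraries. The log2 difference was -1.06 ± 0.53, with an SD of 0.92 in control F1 and 0.03 in FR F1 livers, and it was -0.56 without control replicate 3. The exact two-sided permutation test gave p = 0.10, the smallest value that 3 libraries against 3 allow, and 0.600 after Benjamini-Hochberg adjustment over the 6 ratios computed.

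Igfbp1 (ENSMUSG00000020429.7, chromosome 11, 7197782 to 7202546, plus strand) encodes a short-lived binding protein that insulin represses and fasting raises. It had 63.7, 8.56 and 18.8 CPM for control replicates 1, 2 and 3, against 76.7, 32.1 and 63.6 CPM for FR replicates 1, 2 and 3. Control replicates 2 and 3 were below all FR F1 libraries, while control replicate 1 was level with FR replicate 3. The lowest library held 19 counts (95% exact Poisson interval 11.4 to 29.7) and the highest 205 (178 to 235). Between groups its log2 fold change was 0.92 ± 0.63 (95% interval -0.53 to 2.37, edgeR adjusted p = 0.459). Without control replicate 1 it was 2.05 and passed (edgeR adjusted p = 0.0481, between 0.00866 and 0.731 across the alternatives), and without control replicate 2 it was 0.48.

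Igfbp2 (ENSMUSG00000039323.18, chromosome 1, 72824503 to 72852474, plus strand) encodes an abundant binding protein of serum. It had 276, 225 and 220 CPM for control replicates 1, 2 and 3, against 153, 196 and 264 CPM for FR replicates 1, 2 and 3. FR replicates 1 and 2 were below the control range and FR replicate 3 was inside it. Its estimated log2 fold change was -0.23 ± 0.20 (95% interval -0.70 to 0.23, edgeR adjusted p = 0.552). Leaving out replicate 1 of FR F1 or of control F1 gave -0.05 and -0.12, and leaving out FR replicate 3 gave -0.45. Igfbp2 and Igfbp1 thus had means on opposite sides of the controls, neither past the spread between libraries.

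Igfbp4 (ENSMUSG00000017493.12, chromosome 11, 99041244 to 99054392, plus strand) encodes a binding protein known to restrain IGF action in tissues. It was the steadiest member, with 565, 561 and 558 CPM for control replicates 1, 2 and 3, against 518, 539 and 593 CPM for FR replicates 1, 2 and 3. For FR F1 against control F1 the log2 fold change was -0.03 ± 0.09, and its 95% interval of -0.24 to 0.17 was the narrowest among the 10 genes (edgeR adjusted p = 0.870).

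The ratio of Igfbp1 to Igf1 counts was 0.0674, 0.0118 and 0.0603 for control replicates 1, 2 and 3, against 0.0817, 0.0329 and 0.0777 for FR replicates 1, 2 and 3, with overlapping groups (log2 difference 0.71 ± 0.92, exact permutation p = 0.50). The ratio of Igfbp2 to Igf1 was 0.292, 0.309 and 0.706 in the control libraries and 0.163, 0.201 and 0.323 in the FR libraries. FR replicate 3 lay between the control libraries, and the log2 difference was -0.86 ± 0.50 (exact permutation p = 0.300), or -0.45 without control replicate 3. After adjustment over the 6 ratios, p was 0.720 for both.

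**Figure D3:**
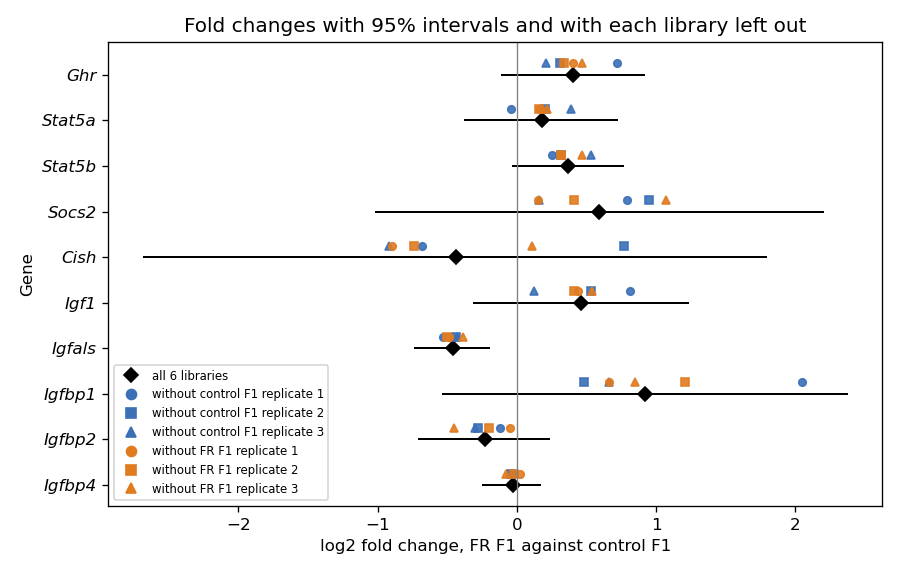
Log2 fold changes of FR F1 against control F1 livers for the 10 axis genes, with black diamonds and lines for the estimate and its 95% interval from all 6 libraries and coloured markers for fits with 1 library left out. The interval of Igfals lies below 0 (-0.73 to -0.20), while Cish changes sign, from -0.92 without control replicate 3 to 0.77 without control replicate 2.

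Ordered by level per kilobase in control F1 livers, the members ran from Igfbp2 at 130 ± 16.8 RPKM and Igfbp4 at 127 ± 0.797 RPKM through Igfals at 103 ± 8.11, Igf1 at 66.8 ± 32.6 and Ghr at 58.0 ± 20.6 RPKM (mean ± SD, n = 3). Below them came Stat5b at 23.5 ± 4.61, Igfbp1 at 19.9 ± 19.2, Cish at 15.1 ± 15.2, Socs2 at 7.5 ± 4.57 and Stat5a at 5.08 ± 1.51 RPKM. The gap to the next gene was larger than the SD of both neighbours after Igfbp4, after Igfals and after Ghr, and not at the other steps. In FR F1 livers Igf1 was at 91.9 ± 8.20 RPKM and Igfals at 74.6 ± 5.77 RPKM. This reversed the order of their means in control F1 livers, where Igf1 ranged from 311 to 946 CPM among libraries. The lengths count exons of all transcripts of a gene, so RPKM is understated for genes with many isoforms, and the ranks and gaps rest on that choice. Ghr has 9053 exonic bases against 4175 in its longest transcript, while Igfbp1 has 1525 by either length. Deposited counts rarely exceeded 1 count per base of the longest transcript (13 of 21769 protein-coding genes of at least 300 bases did so in any library), and the members stayed between 0.0303 for Stat5a and 0.493 for Igfbp2 in their highest library.

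Among 13 other genes of IGF ligands, receptors, binding proteins and their proteases, 5 could be tested, and 0 passed (edgeR; 1 had an unadjusted p under 0.05, and DESeq2 called 1 and limma-voom 0). Their median log2 fold change was 0.57, with 4 positive. Over all tested genes, 17.9% had an unadjusted p under 0.05 by edgeR, and DESeq2 and limma-voom called 3.51% and 0.791%. In 25.7% of tested genes the groups did not overlap, beside 2 of the 5 tested in this list. These shares are also the background for the lists below. Igf2, the fetal growth factor gene, had 0 counts in all libraries. It shares 3596 of 5723 exonic bases with a gene model on the same strand, so its counts are uncertain. Igfbp7 encodes a matrix-bound protein related to the IGF binding proteins that endothelial and stellate cells make in quantity. It had 42.9, 31.6 and 49.9 CPM for control replicates 1, 2 and 3, against 76.3, 83.6 and 87.8 CPM for FR replicates 1, 2 and 3. The groups did not overlap, and the log2 fold change was 0.99 ± 0.19 (edgeR adjusted p = 0.0732, between 0.000669 and 0.233 across the alternatives). Igfbp3, which in liver comes largely from non-parenchymal cells and encodes the main carrier of the circulating complex, had 46.4, 22.5 and 36.8 CPM in the control libraries and 59.1, 52.7 and 46.0 CPM in the FR libraries, with a log2 fold change of 0.57 ± 0.26 (edgeR adjusted p = 0.293).

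Levels of non-parenchymal cell markers are given here because such cells are known sources of Igfbp7 and Igfbp3. The 13 sinusoidal endothelial markers were all positive in log2 fold change, with a median of 0.93, and their sum lay between 512 and 811 CPM in control libraries and between 1020 and 1200 CPM in FR libraries. The 12 stellate and fibroblast markers were positive in 12 of 12, with a median of 0.98 and sums of 376 to 583 CPM against 852 to 1010 CPM. Of these 25 markers 0 was at 0 in all libraries, while Lyve1, an endothelial marker, had 0 counts in control replicate 2. By edgeR 1 passed the test, the stellate and fibroblast marker Pdgfra, at 1.53 ± 0.26 (edgeR adjusted p = 0.0456, between 0.00433 and 0.190 across alternatives). DESeq2 called 6 of the 13 endothelial and 5 of the 12 stellate and fibroblast markers, and limma-voom called 1 of each list. Over all tested genes these 2 methods called 3.51% and 0.791%. The groups did not overlap in 10 endothelial and 8 stellate and fibroblast markers, where 25.7% of tested genes had groups that did not overlap. The most abundant per kilobase were Eng and Clec4g of the endothelium, at 0.68 ± 0.23 and 0.85 ± 0.26, and Ecm1 and Colec11 of stellate cells, at 0.71 ± 0.22 and 0.69 ± 0.27. Kupffer cell markers had a median of 0.44 over 10 genes and sums of 336 to 651 CPM against 432 to 842 CPM. B cell markers had a median of 1.34 over 3 tested genes, among them Ighm and Jchain at 1.34 ± 0.46 and 1.89 ± 0.61, and sums of 17.6 to 37.7 CPM against 58.2 to 104 CPM. The 2 tested cholangiocyte markers had a median of 0.39, with sums of 42.8 to 137 CPM against 71.0 to 94.0 CPM. Hepatocyte markers had a median of -0.20 over 9 genes, from -0.41 to 0.19, with 3 positive and 6 negative. By edgeR 0 passed and 3 had an unadjusted p under 0.05, all lower in FR F1, where 17.9% of tested genes lay under that value. Their groups did not overlap in 3 genes. The part of these markers in the values of Igfbp7 and Igfbp3 was not tested, nor was that of the hepatocyte markers in the value of Igfals.

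Of 25 further genes of growth hormone signalling, its brakes and its downstream regulators, 24 were tested and 0 passed (edgeR; 3 had an unadjusted p under 0.05, and DESeq2 called 1 and limma-voom 0). Their median log2 fold change was -0.11, with 9 positive and 15 negative. Socs4, a SOCS family gene, had 48.6, 29.7 and 23.4 CPM for control replicates 1, 2 and 3, against 72.5, 78.9 and 68.5 CPM for FR replicates 1, 2 and 3, with a log2 fold change of 1.12 ± 0.26 (edgeR adjusted p = 0.104, between 0.000181 and 0.309 across alternatives). Its groups did not overlap, unlike those of Socs2 and Cish. Sh2b1, the gene of an adaptor that binds JAK2 and strengthens its activity, had 163, 187 and 194 CPM in the control libraries and 134, 118 and 146 CPM in the FR libraries. Those groups did not overlap either, and the log2 fold change was -0.45 ± 0.14 (edgeR adjusted p = 0.165). Of the 24 tested genes of this list, 5 had groups that did not overlap, beside 25.7% of all tested genes.

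The sex-biased genes of the liver read out the male pulse pattern over longer times. All 14 male-biased genes were tested, 0 passed, and the median log2 fold change was 0.17, with 10 positive (edgeR; 2 had an unadjusted p under 0.05, and DESeq2 called 1 and limma-voom 0). Elovl3, a fatty acid elongase gene, had 150, 238 and 130 CPM for control replicates 1, 2 and 3, against 258, 326 and 348 CPM for FR replicates 1, 2 and 3 (log2 fold change 0.85 ± 0.23, edgeR adjusted p = 0.137, between 1.61e-05 and 0.343 across alternatives). Slco1a1, an organic anion transporter gene, had 538, 450 and 224 CPM in the control libraries and 623, 679 and 616 CPM in the FR libraries (0.66 ± 0.27, edgeR adjusted p = 0.260). The groups did not overlap in either gene, and control replicate 3 was the lowest library in both, as it was in Igf1 and Ghr. Of the 14 genes, 3 had groups that did not overlap, beside 25.7% of all tested genes. The remaining gene was Cyp2d9, lower in FR F1 (-0.10 ± 0.08, edgeR adjusted p = 0.538). FR replicate 3, with its low Cish and Socs2, had the highest Elovl3 of all libraries. Selenbp2, the most abundant male-biased gene per kilobase, had a log2 fold change of -0.24 ± 0.28 (edgeR adjusted p = 0.661), and like several genes of this list it has close paralogs that can share reads.

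Female-biased genes were scarce in these male livers. Only 3 of 18 had enough counts to be tested, 0 passed (edgeR; 1 had an unadjusted p under 0.05, and DESeq2 called 1 and limma-voom 0), and 2 had 0 counts in all libraries. Cyp17a1, a steroid hydroxylase gene, had 16.5, 21.6 and 5.75 CPM for control replicates 1, 2 and 3, against 2.24, 1.47 and 3.28 CPM for FR replicates 1, 2 and 3. Of the 3 it alone had groups that did not overlap, beside 25.7% of all tested genes. Its log2 fold change was -2.62 ± 0.57 (edgeR adjusted p = 0.0863, between 7.03e-06 and 0.301 across alternatives). Cyp2b10, the most abundant of the 3 per kilobase, had 0.60 ± 0.46 (edgeR adjusted p = 0.508).

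Insulin and fasting genes were followed because Igfbp1 responds to the same signals. Of 12 tested, 0 passed (edgeR; 2 had an unadjusted p under 0.05, and DESeq2 called 1 and limma-voom 0), with a median log2 fold change of -0.22. Pck1, a gluconeogenic enzyme gene that insulin represses as it does Igfbp1, had 1000, 1020 and 913 CPM for control replicates 1, 2 and 3, against 584, 657 and 769 CPM for FR replicates 1, 2 and 3. Its log2 fold change of -0.54 ± 0.11 (edgeR adjusted p = 0.0804, between 0.000610 and 0.289 across alternatives) had the opposite sign to that of Igfbp1. The kinase gene Akt1 had -0.51 ± 0.18 (edgeR adjusted p = 0.211), with groups that did not overlap. That held for 3 of the 12 genes, beside 25.7% of all tested genes.

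**Figure D4:**
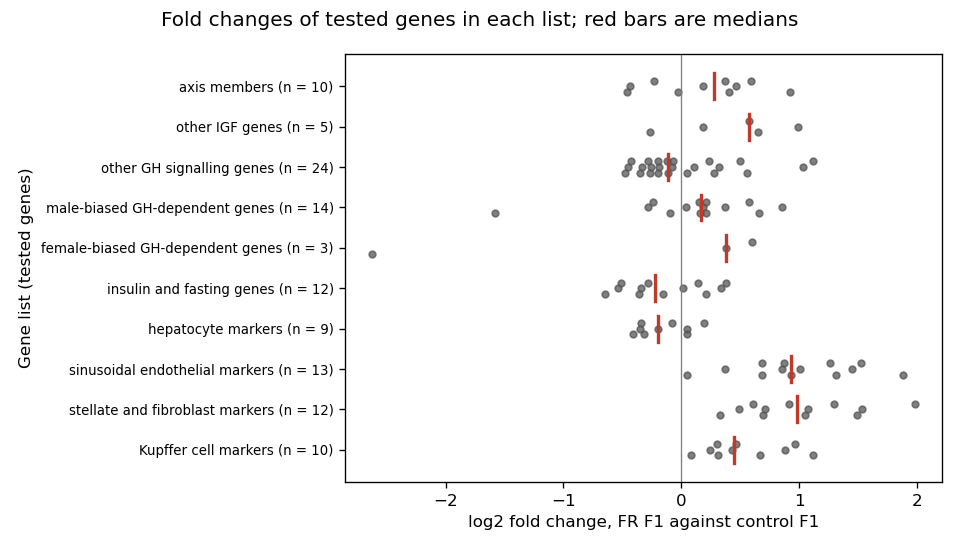
Log2 fold changes of FR F1 against control F1 livers for the tested genes of 10 lists, with 1 point per gene and red bars for list medians. The axis members have a median of 0.27, while the endothelial and stellate marker lists have medians of 0.93 and 0.98 with every point above 0.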

How the data were processed

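The authors deposited 1 table of raw counts per Ensembl gene for 6 liver libraries; per the submitters' processing notes the tools were STAR, StringTie, HTSeq and DESeq2 on mm10, with no versions or order. Which annotation release and strand setting served the counting, and its treatment of shared reads, were not given in the sources used here. For RNA the labels name Trizol, with a TruSeq DNA kit for the libraries. Columns were matched through the code in each sample's description. Symbols and positions come from GENCODE M21, which matched 53620 of 53715 genes.

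The test was that of edgeR 4.0.16 (R 4.3.3) on the counts (filterByExpr keeping genes by its minimum count, 10, and minimum total, 15, then TMM, glmQLFit and glmQLFTest), leaving 13022 genes, with Benjamini-Hochberg adjustment over all of them. The SE is the absolute log2 fold change divided by the square root of F, and 95% intervals use the t quantile at the total degrees of freedom. Ratios of counts were compared by exact permutation. Replicates within a group differed by 4.01 to 13.4 chi-square per degree of freedom, so none was a duplicate. The fit was tested on simulated data. Alternatives were DESeq2 1.42.0, limma-voom (limma 3.58.1), 3 scalings, 2 filters, a replicate block and each library left out. The members, the lists of pathway genes and markers and the tests were chosen with earlier results of these data known. The rule for named genes took all members, from each pathway list the genes past the threshold or else the 2 of smallest p and the most abundant gene per kilobase, and from each marker list with a median beyond 0.5 the 2 most abundant genes per kilobase. Bcl6, Onecut1, Prlr, Jak2, Socs5, Stat6, Socs7, Cyp2d9, Pdgfra, Lyve1 and Igf2 fall outside it and were named after their values were seen.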

Additional observations from a re-analysis of the deposited data

How the results depend on the processing

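No axis member passed under RLE, upper quartile or total-count scaling, a minimum of 1 CPM in 3 libraries, DESeq2, limma-voom or the replicate block. Without a filter on low counts 2 were higher, Igf1 (log2 fold change 0.44) and Igfbp1 (0.90), and 1 lower, Igfals (-0.48); without control replicate 1 again 2 were higher, Ghr (0.72) and Igfbp1 (2.05), and 1 lower, Igfals (-0.53). With 1 library left out in turn, the counts of members were 0 to 2 higher and 0 to 1 lower, and the log2 fold changes ran from 0.21 to 0.72 for Ghr, -0.53 to -0.39 for Igfals, 0.48 to 2.05 for Igfbp1, -0.08 to 0.02 for Igfbp4, -0.04 to 0.39 for Stat5a, 0.15 to 1.07 for Socs2, -0.45 to -0.05 for Igfbp2, 0.12 to 0.81 for Igf1, 0.25 to 0.53 for Stat5b and -0.92 to 0.77 for Cish. Signs turned in those fits for Igfbp4 without FR replicate 1, for Stat5a without control replicate 1, and for Cish without control replicate 2 (0.77) and FR replicate 3 (0.11), and under no other alternative. The log2 ratio differences ran from -1.46 (without control replicate 1) to -0.56 for Igfals to Igf1, from -1.14 to -0.45 for Igfbp2 to Igf1, from 0.06 (without control replicate 2) to 0.29 for Stat5b to Stat5a, from -0.10 (without control replicate 2) to 1.16 for Igfbp1 to Igf1, from -2.01 to 0.16 (without FR replicate 3) for Cish to Ghr, and from -0.48 to 0.81 for Socs2 to Ghr, which was negative without control replicate 3 (-0.48), FR replicate 1 (-0.48) and FR replicate 2 (-0.28). The cause of these changes was not tested.

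Over all genes, 763 were higher and 488 lower without the filter, 252 and 205 with DESeq2, and between 2 and 434 higher and between 5 and 217 lower with 1 library left out, against 51 and 58. Without the filter, 1 other IGF gene and 1 other signalling gene were higher, 3 male-biased genes were higher and 1 lower, 3 female-biased genes were lower and 1 insulin and fasting gene was lower. DESeq2 called 1 gene in each of these 5 lists. With 1 library left out, 0 to 1 other IGF genes and 0 to 1 other signalling genes were higher and 0 to 1 female-biased genes lower.

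Same-numbered libraries were not treated as pairs in the main test, and no label says that they are linked. Their deviations from the group means had a Pearson r across genes of -0.0173 for number 1, beside 0.108 and 0.153 for numbers 2 and 3. Deviations within a group sum to 0, so these values depend on each other and cannot settle whether libraries were paired. Control replicates 2 and 3 correlated best with their own number, and control replicate 1 with FR replicate 2 (0.155). With the replicate number as a block 9 genes were higher and 12 lower. In that fit the SE fell from 0.70 to 0.19 for Socs2 and from 0.97 to 0.50 for Cish. It also fell for Ghr, Igf1 and Igfbp1, stayed the same for Stat5a and rose for Igfals, Igfbp2, Igfbp4 and Stat5b. With 12 to 460 Cish counts per library, counting error was small beside the spread between libraries, which set the width of the intervals.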
